A study of Mus musculus with 16 samples.

Results

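Eosinophils are granulocytes that carry preformed cationic proteins in large granules and release them onto parasites and damaged tissue. The 9 genes described here, of 20200 genes in the count table, encode the best known of these products and of the receptors that mark the cell. They are Epx, Prg2, Prg3, Ear1, Ear2 and Ear6 for the granule, and Siglecf, Il5ra and Ccr3 for the surface. They were found by their symbols, all 9 were in the table, and all 9 passed the filter on low values that left 11998 genes to test, Il5ra only through the CD9+ groups where it was high. The genes were chosen by their levels in these same libraries, so their levels and differences are described and are given without a test.

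The libraries were made from the interface tissue between tendon graft and bone in 12-week-old wild-type C57BL/6 mice (C57BL/6J in the study's methods) after anterior cruciate ligament reconstruction (ACLR), in which a leg tendon is drawn through bone tunnels to replace the ligament. All 8 groups had the surgery, and they differ in the sorted population and in the day after surgery, 1 or 14, with 2 libraries in each group and 16 in all. All sorts took live, lineage-negative cells with CD45. Neutrophils were those with Ly6G and Ly6C, and with CD11b in the study's methods. The other populations had CD11b without Ly6G. Of these, CD9+ macrophages had F4/80 and CD9, CX3CR1+ macrophages had F4/80 and CX3CR1 but not CD9, and F4/80- myeloid cells lacked F4/80. Rare cells with both CD9 and CX3CR1 went into the CD9+ sort. Each library came from several mice pooled, and replicate error here is that between such pools. The gates named in the labels use neither Siglec-F nor CCR3, the surface proteins by which mouse eosinophils are usually sorted, and eosinophils are not among the named populations.

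Eosinophil granules hold a crystalline core of major basic protein, encoded by Prg2, with its homologue Prg3, and a matrix of eosinophil peroxidase, encoded by Epx, and of ribonucleases. In the mouse these ribonucleases form a family of near-identical genes named Ear. Granule genes are transcribed mostly while eosinophils mature, whereas Siglecf, Il5ra and Ccr3 are also expressed by mature cells. Il5ra encodes the subunit that binds interleukin 5, the main growth factor of the lineage. Ccr3 encodes the receptor for eotaxins, and Siglecf a receptor for sialic acids. In tissues, eosinophils can express F4/80 and CD11b. Some of the genes are known from other cells too, such as Siglecf in alveolar macrophages and activated neutrophils, and Ear2 in monocytes and macrophages.

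In the mm10 coordinates of the table, Prg2 (ENSMUSG00000027073) lies on chromosome 2 from 84980461 to 84983632 and Prg3 (ENSMUSG00000027072) from 84988215 to 84993886, both on the plus strand and 4583 bases apart. Epx (ENSMUSG00000052234) lies on chromosome 11 from 87864000 to 87875536 on the minus strand. Of the ribonuclease genes, Ear1 (ENSMUSG00000072601) is on the minus strand of chromosome 14 from 43818765 to 43875517, and Ear2 (ENSMUSG00000072596) and Ear6 (ENSMUSG00000062148) are on the plus strand from 44102654 to 44103534 and from 51853699 to 51854643. Siglecf (ENSMUSG00000039013) is on chromosome 7 from 43351341 to 43359531, Il5ra (ENSMUSG00000005364) on chromosome 6 from 106710357 to 106749037, and Ccr3 (ENSMUSG00000035448) on chromosome 9 from 124021972 to 124031689.

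How far the 3 ribonuclease genes can be told apart by reads is seen in their coding sequences, since the first 120 coding bases differ at 16 positions. These stretches, from the Gencode transcripts of the same build, are shown from the start codon with the positions that differ between any of the 3 genes in capitals.
Ear1: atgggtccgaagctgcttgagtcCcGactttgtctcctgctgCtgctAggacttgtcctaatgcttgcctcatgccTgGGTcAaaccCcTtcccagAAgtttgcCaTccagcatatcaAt
Ear2: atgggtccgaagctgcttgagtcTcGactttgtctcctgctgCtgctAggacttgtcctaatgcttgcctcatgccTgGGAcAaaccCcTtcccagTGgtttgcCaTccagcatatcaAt
Ear6: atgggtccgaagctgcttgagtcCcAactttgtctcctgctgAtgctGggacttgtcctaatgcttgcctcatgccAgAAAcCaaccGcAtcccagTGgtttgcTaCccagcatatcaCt

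Over the whole coding sequence, Ear1 and Ear2 were identical at 445 of 465 aligned bases (95.7%), while Ear6 shared 87.3% with Ear1 and 88.2% with Ear2. Of the 50-base windows of the Ear1 transcript, 28.6% were found letter for letter in another gene of the family (Ear2, Ear6, Ear10 or Ear14), against 37.6% for Ear2 and 1.1% for Ear6. How reads that match several genes were counted is not given in the sources used here, so the split between Ear1 and Ear2 is uncertain. The values of Ear6 and the sum of the 3 genes depend less on that split. Ear2 shared 97% of its coding bases with Ear10, which is outside the sum. Reads shared with Ear10 can thus bear on Ear2 and on the sum. Prg2 and Prg3 shared 67.7% of 651 aligned bases and no such window.

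Promoters are shown for members that stood together or apart in the levels below, from 250 bases before to 50 after the RefSeq start site on GRCm38.p6, which has the coordinates of mm10. GATA factors direct the eosinophil lineage, and capitals mark the letters GATAA or, on the other strand, TTATC. The Ear1 start of RefSeq lies inside the Gencode gene, which begins further upstream. The windows are chr11:87875487-87875786 (minus strand) for Epx, chr2:84987965-84988264 (plus) for Prg3, chr14:43819590-43819889 (minus) for Ear1, chr14:44102404-44102703 (plus) for Ear2 and chr7:43351091-43351390 (plus) for Siglecf.
Epx: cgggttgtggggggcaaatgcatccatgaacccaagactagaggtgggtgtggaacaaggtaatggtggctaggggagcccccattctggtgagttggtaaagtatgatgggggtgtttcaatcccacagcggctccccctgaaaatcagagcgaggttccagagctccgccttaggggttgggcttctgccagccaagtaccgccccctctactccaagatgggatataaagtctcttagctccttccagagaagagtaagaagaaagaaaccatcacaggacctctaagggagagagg
Prg3: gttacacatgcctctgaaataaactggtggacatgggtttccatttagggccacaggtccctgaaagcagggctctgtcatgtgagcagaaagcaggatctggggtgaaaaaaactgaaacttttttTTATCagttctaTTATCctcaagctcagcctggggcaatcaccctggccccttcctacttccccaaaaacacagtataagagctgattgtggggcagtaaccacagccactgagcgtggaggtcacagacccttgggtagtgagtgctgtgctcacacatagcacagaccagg
Ear1: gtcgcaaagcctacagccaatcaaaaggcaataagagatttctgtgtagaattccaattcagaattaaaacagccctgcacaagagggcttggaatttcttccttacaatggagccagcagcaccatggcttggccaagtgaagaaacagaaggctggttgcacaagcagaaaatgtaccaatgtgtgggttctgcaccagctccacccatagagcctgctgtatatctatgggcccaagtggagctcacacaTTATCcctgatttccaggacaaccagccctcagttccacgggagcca
Ear2: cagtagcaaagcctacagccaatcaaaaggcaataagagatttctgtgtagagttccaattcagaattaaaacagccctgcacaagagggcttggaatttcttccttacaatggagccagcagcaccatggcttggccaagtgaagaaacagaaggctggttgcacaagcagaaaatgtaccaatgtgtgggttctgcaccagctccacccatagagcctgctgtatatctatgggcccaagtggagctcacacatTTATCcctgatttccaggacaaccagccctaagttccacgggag
Siglecf: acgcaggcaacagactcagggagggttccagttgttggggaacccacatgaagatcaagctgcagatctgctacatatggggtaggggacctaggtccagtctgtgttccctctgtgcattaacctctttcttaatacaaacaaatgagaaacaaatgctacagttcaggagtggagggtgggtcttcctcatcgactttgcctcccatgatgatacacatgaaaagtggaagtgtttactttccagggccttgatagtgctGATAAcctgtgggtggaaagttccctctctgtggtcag

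The RefSeq table held windows for 8 of the 9 genes, Prg2 being the one not found in it. The letters GATAA, on either strand, were in 25.4% of 32851 mouse promoter windows and occurred at least 2 times in 5.3%. Prg3 had 2 matches, Il5ra, Ccr3, Siglecf, Ear1, Ear2 and Ear6 had 1 each, and Epx had none. The aligned promoters of Ear1 and Ear2 were identical at 294 of 297 bases (99%), and those of Ear1 and Ear6 at 92.8%. Ear1 and Ear2 thus share almost all letters of this window, which is set against their levels below. A match of letters is a description and says nothing of binding, and neither does its absence.

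Levels are given as CPM, read counts scaled to a common library total with the TMM factors of edgeR, which adjust for composition. Total counts per library ranged from 9233952 to 19814119, and 3 counts, taken as the limit of detection, corresponded to between 0.132 and 0.361 CPM. Such limits cover counting error only. The libraries of CD9+ macrophages of day 1 were the least alike of any group (Pearson r of log2 CPM 0.935, against 0.976 to 0.988 elsewhere), and differences that involve this group are less precise. Adgre1, which encodes F4/80, had 120 and 159 CPM in CD9+ macrophages of day 1 and 145 and 217 on day 14, against 8.43 to 13.8 in F4/80- myeloid cells. Ly6g, the neutrophil antigen, had 81.7 to 286 CPM in neutrophils and at most 10.1 in the other libraries.

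The mean levels of all 9 genes were highest in CD9+ macrophages of day 14. The 6 granule genes there stood between 10.3 and 19.3 times their day 1 levels and, Ear2 apart, the other populations of that day had 1.19% or less of the CD9+ level. The receptor genes differed less between the days, and Siglecf was about as high in neutrophils of day 1 as in CD9+ macrophages of day 14. Together the 9 genes took 0.802% and 1.26% of all counts in the CD9+ libraries of day 14 and 0.0669% and 0.0606% on day 1. In the other 12 libraries their share was 0.0148% or less. Fewer cells of a type and less RNA per cell cannot be told apart in such bulk libraries.

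**Figure D1:**
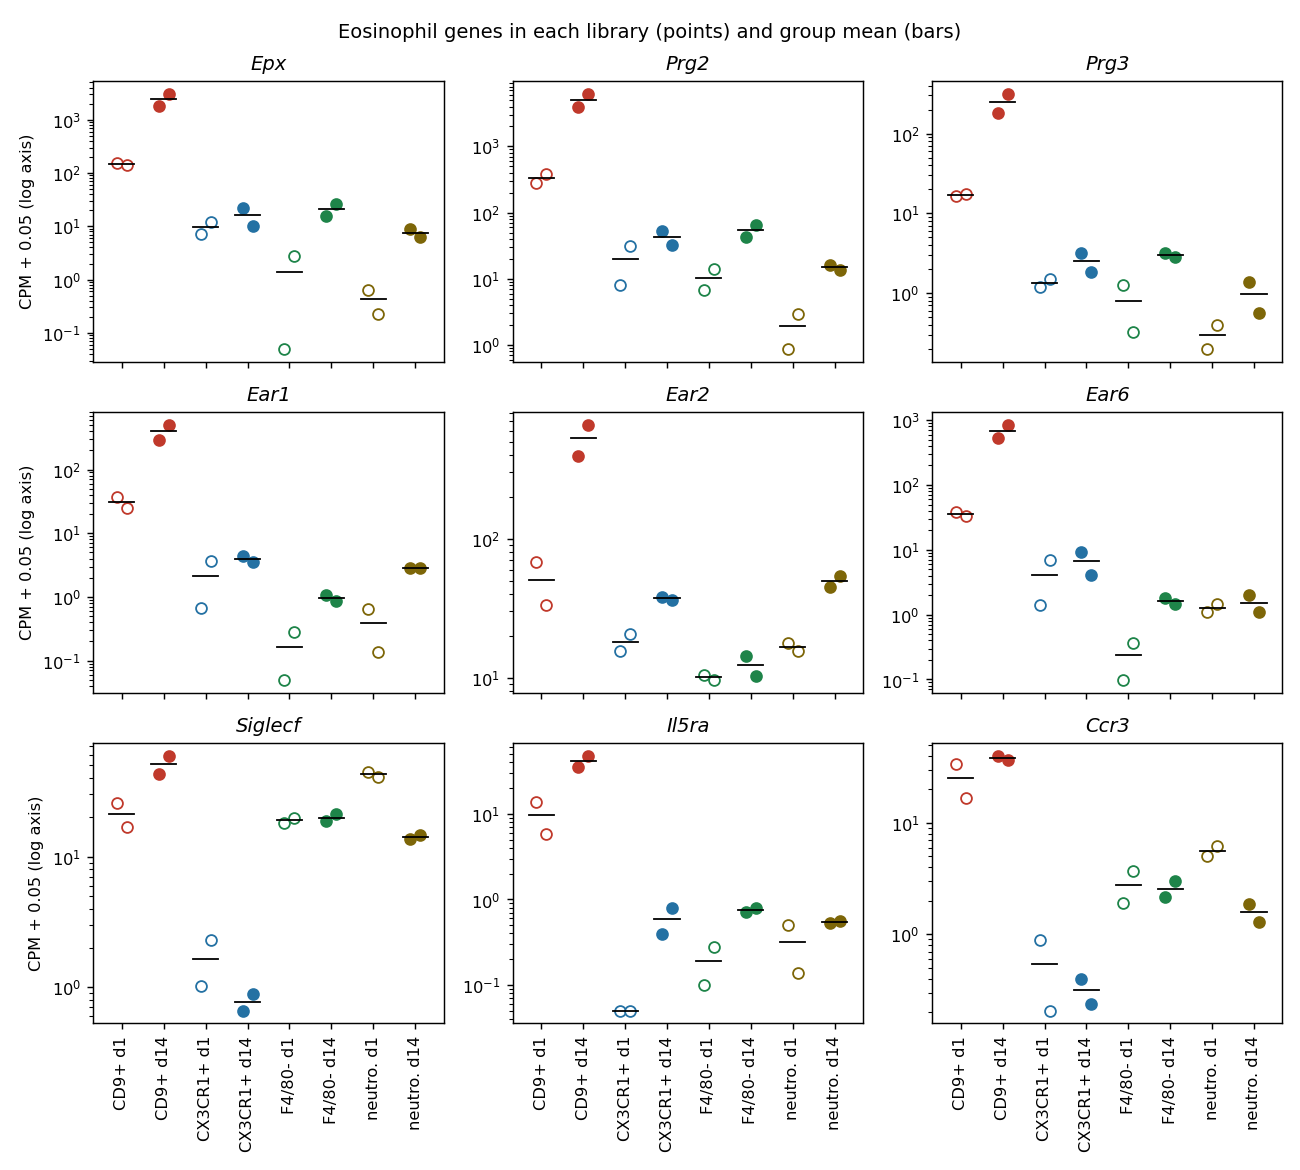
Level of each of the 9 genes in every library, as CPM with TMM scaling plus 0.05 on a log axis that differs between panels, by sorted population (colour) and day (open, day 1; filled, day 14); points are libraries and bars are group means of 2. The CD9+ libraries of day 14 have the highest mean in all 9 panels, while Ear2 and Siglecf show high levels in further groups.

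Prg2, the major basic protein of the granule core, had the most transcripts of the set in CD9+ macrophages. It had 281 and 390 CPM in CD9+ macrophages of day 1 and 3927 and 6237 on day 14. Its day 14 mean of 5082 ± 1634 (SD, n = 2) was the 8th highest of all tested genes in that group and, per kilobase of exon, the 10th. In CX3CR1+ macrophages it had 7.95 and 31.4 CPM on day 1 and 53.1 and 31.8 on day 14. F4/80- myeloid cells had 6.68 and 14.0 CPM on day 1 and 42.6 and 65.3 on day 14. Neutrophils had the lowest levels, 0.825 and 2.90 on day 1, then 16.3 and 13.7 on day 14. The CD9+ libraries did not overlap with any other group, and within them the days did not overlap either.

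Epx, the peroxidase of the granule matrix, followed the same order at a lower level. CD9+ macrophages had 151 and 140 CPM on day 1 and 1816 and 3067 on day 14, a mean of 2441 ± 884 (SD, n = 2) that ranked 21st of the tested genes. The other 3 populations had between 6.28 and 26.2 CPM on day 14. On day 1 CX3CR1+ macrophages had 7.20 and 12.2 CPM, and neutrophils 0.600 and 0.176. The F4/80- libraries of day 1 were unlike each other, with 0 counts in library 1 and 59 counts, or 2.70 CPM, in library 2. Neighbouring groups below CD9+ macrophages mostly overlapped, so no order can be given among F4/80- and CX3CR1+ cells of day 14.

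Prg3, the homologue of major basic protein next to Prg2 on the chromosome, was the least abundant granule transcript in CD9+ macrophages. Its levels were 16.3 and 17.5 CPM in CD9+ macrophages of day 1 and 182 and 315 on day 14, and between 0.150 and 3.14 in the other 12 libraries. Per 100 counts of Prg2 there were 5.82 and 4.5 counts of Prg3 in the CD9+ libraries of day 1 and 4.65 and 5.05 on day 14. For Epx the numbers were 53.9 and 35.8 on day 1, against 46.2 and 49.2 on day 14. The proportions of the 3 genes within CD9+ macrophages thus stayed within a narrow range while their levels differed by more than 10 times. In the other populations on day 14 the proportions were close to these, with 31.8 to 54.1 counts of Epx and 3.76 to 8.15 of Prg3 per 100 of Prg2. On day 1 the proportions in those populations scattered widely, for Epx from 0 to 90.6.

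The secreted ribonucleases encoded by the Ear genes attack RNA and act on viruses and cells. Ear6 had 38.4 and 33.1 CPM in CD9+ macrophages of day 1 and 528 and 852 on day 14. Ear1 had 37.4 and 25.1 on day 1 and 292 and 505 on day 14. Neither reached 10 CPM in any other library. In F4/80- myeloid cells Ear1 had 0 and 5 counts on day 1 and 14 and 10 counts on day 14, and Ear6 had 1 and 7 counts and then 24 and 17.

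Ear2 was different in its breadth. CD9+ macrophages had 68.3 and 33.5 CPM on day 1 and 394 and 662 on day 14, much like Ear1, but Ear2 was detected at 9.62 CPM or more in all 16 libraries. In neutrophils it had 17.8 and 15.5 CPM on day 1 and 45.0 and 53.5 on day 14. CX3CR1+ macrophages had 15.6 and 20.6 and then 38.3 and 36.0. F4/80- myeloid cells had 9.62 to 14.4. The neutrophil libraries of day 14 lay between the libraries of CD9+ macrophages of day 1, so these groups overlapped. Per 100 counts of Prg2, Ear2 had 10.03 and 10.6 counts in CD9+ macrophages of day 14 and 277 and 391 in neutrophils of that day. Ear1, with a promoter window that is almost the same in its letters, had 7.44 and 8.10 counts per 100 of Prg2 in CD9+ macrophages of day 14 and 17.0 and 20.3 in neutrophils. The sum of the 3 Ear genes depends less on how reads shared among these 3 were counted. It was 1215 and 2019 CPM in CD9+ macrophages of day 14 and at most 57.3 in the other populations.

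The receptor genes were expressed at lower levels. Per kilobase of exon, the mean in CD9+ macrophages of day 14 was 6065 CPM for Prg2, 892 for Epx, 734 for Ear2, 730.5 for Ear6, 546 for Ear1 and 262 for Prg3. On the same scale it was 18.4 for Siglecf, 11.7 for Ccr3 and 11.6 for Il5ra. Every granule transcript was thus at least 10 times as abundant as every receptor transcript in that group.

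Il5ra, the interleukin 5 receptor subunit, was the receptor gene most restricted to CD9+ macrophages. It had 13.7 and 5.70 CPM there on day 1 and 35.1 and 48.1 on day 14. The other libraries had 9 counts or fewer each, at most 0.743 CPM, and both CX3CR1+ libraries of day 1 had 0. Against the limit of 3 counts per library, Il5ra was at least 61.9-fold higher in CD9+ than in CX3CR1+ macrophages on day 1. On day 14 there were 840 counts in CD9+ and 12 in CX3CR1+ macrophages, a ratio of CPM of 76.8 with a 95% counting interval of 43.7 to 149.

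Ccr3, the eotaxin receptor, had 33.6 and 16.6 CPM in CD9+ macrophages of day 1 and 39.9 and 36.6 on day 14. Neutrophils came next on day 1, with 5.02 and 6.14 CPM, but had 1.81 and 1.23 on day 14, below the F4/80- libraries of that day. F4/80- myeloid cells had 1.85 to 3.62 over both days, and CX3CR1+ macrophages 0.157 to 0.835. Ccr3 was thus detected on both days in 3 of the 4 populations above the limit of detection, with CD9+ macrophages above the rest in every library.

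Siglecf, the sialic acid receptor, was detected in all 16 libraries and was the most widely expressed of the receptor genes. Its levels were 25.5 and 16.8 CPM in CD9+ macrophages of day 1, 43.0 and 59.4 on day 14, 44.8 and 40.7 in neutrophils of day 1 and 13.5 and 14.6 on day 14. F4/80- myeloid cells had 18.2 and 19.8 CPM on day 1 and 18.6 and 21.1 on day 14, within or beside the range of CD9+ macrophages of day 1. Only CX3CR1+ macrophages were low, with 0.966 and 2.25 and then 0.610 and 0.835 CPM. In the order of the levels, CD9+ macrophages of day 14 overlapped with neutrophils of day 1, and CD9+ macrophages of day 1 with both F4/80- groups.

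**Figure D2:**
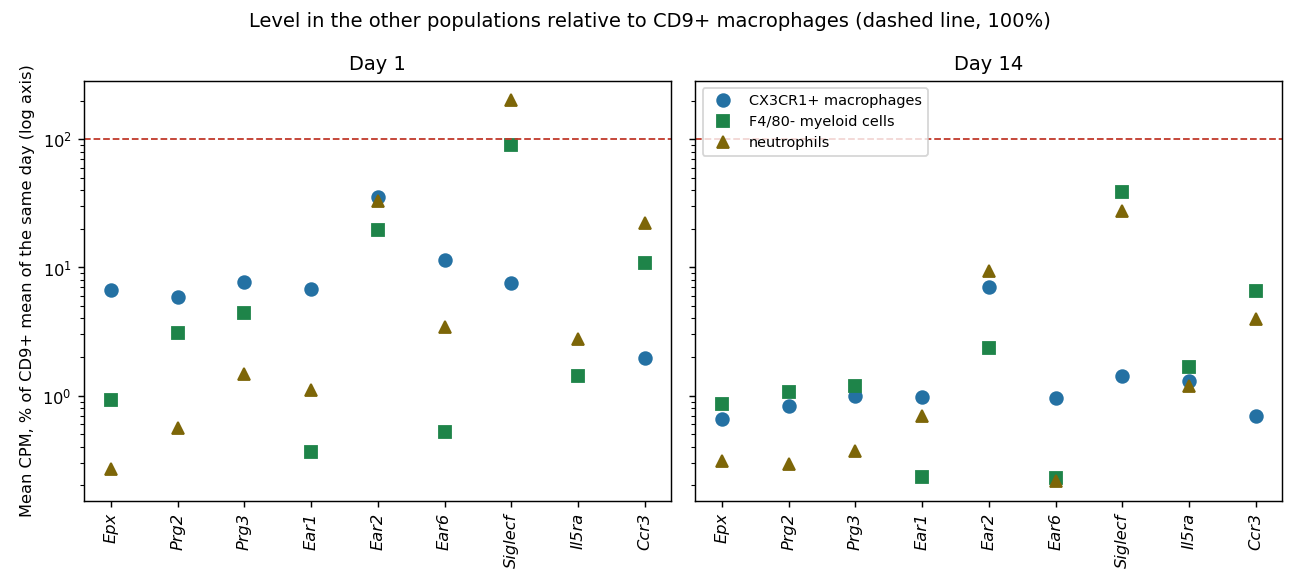
Mean CPM of each gene in CX3CR1+ macrophages, F4/80- myeloid cells and neutrophils as a percentage of the mean in CD9+ macrophages of the same day (dashed line at 100%), on a log axis; Il5ra in CX3CR1+ macrophages of day 1 is 0 and not drawn. Siglecf in neutrophils of day 1 lies above the line at 202%, and on day 14 the granule genes other than Ear2 lie at or below 1.19%.

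In CD9+ macrophages between day 14 and day 1, the granule genes were higher by log2 fold changes (with standard errors) of 4.07 ± 0.54 for Epx, 3.92 ± 0.53 for Prg2 and 3.88 ± 0.35 for Prg3. For the ribonucleases they were 4.27 ± 0.46 for Ear6, 3.66 ± 0.44 for Ear1 and 3.37 ± 0.30 for Ear2. The median over the 6 genes was 3.90, while the median over all tested genes was 0.004. The receptor genes had smaller values, with 2.08 ± 0.44 for Il5ra, 1.27 ± 0.27 for Siglecf and 0.60 ± 0.41 for Ccr3. A gene was called in this report at a Benjamini-Hochberg adjusted p under 0.05 in edgeR's quasi-likelihood test together with a log2 fold change of 1 or more in size. By that rule 8.23% of all genes were called in this comparison, and 8 of the 9 genes were past it, all but Ccr3. The genes were chosen with this difference known, and nothing is read from that count.

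The sum of the 6 granule genes was 592 and 638 CPM in the CD9+ libraries of day 1 and 7140 and 11638 on day 14, and that of the 3 receptor genes was 72.8 and 39.1 and then 118 and 144. The ratio of granule to receptor transcripts was 8.13 and 16.3 on day 1, against 60.5 and 80.8 on day 14. The groups did not overlap. Within day 1, library 1 had more receptor RNA, by 2.03 times for Ccr3, 2.41 for Il5ra and 1.52 for Siglecf, and more Ear2, by 2.04 times, while library 2 had 1.39 times as much Prg2. The summed neutrophil markers moved with this, at 18542 CPM in library 1 and 5694 in library 2, and so did the basophil and mast cell markers, at 310 and 161 CPM. Their part in the difference was not tested. Without library 1 of day 1 the log2 fold change of Ccr3 was 1.21 and without library 2 it was 0.19, so its size rested on which library was used. Over the fits that each left out 1 library, Il5ra ranged from 1.60 to 2.86 and Siglecf from 1.00 to 1.61, and each missed the rule in 1 of 16 fits. The 6 granule genes stayed between 2.94 and 4.59.

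**Figure D3:**
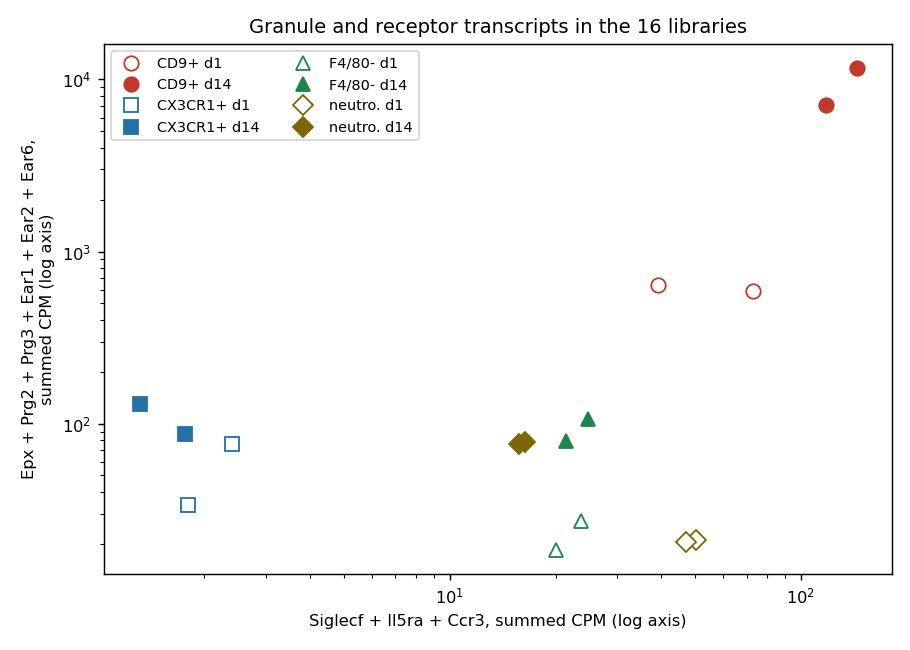
Summed CPM of the 6 granule genes against that of the 3 receptor genes in each of the 16 libraries, both on log axes, by population (shape and colour) and day (open, day 1; filled, day 14). The CD9+ libraries lie above all others on the granule axis, day 14 above day 1, and the neutrophil libraries move from 20.5 and 21.0 granule CPM with 47.0 and 50.2 receptor CPM on day 1 to 76.1 and 77.8 with 15.8 and 16.4 on day 14.

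Several granule transcripts also differed between days outside the CD9+ sort, at much lower levels. In F4/80- myeloid cells day 14 exceeded day 1 by log2 fold changes of 3.92 ± 0.67 for Epx, 2.38 ± 0.53 for Prg2 and 1.99 ± 0.50 for Prg3. The Epx value rested on library 2 of day 1, since library 1 had 0 counts, and without library 1 it was 2.96. The Prg3 value ranged from 1.28 to 3.39 over the fits without 1 library, and Ear2 had 0.30 ± 0.31 with overlapping libraries. In neutrophils the values were 4.18 ± 1.03 for Epx, 3.05 ± 0.71 for Prg2 and 1.56 ± 0.30 for Ear2, from 8 and 2 counts of Epx on day 1 to 73 and 61 on day 14. Ear6 had 0.25 ± 0.91 there, and its libraries overlapped. In CX3CR1+ macrophages the granule genes differed by 0.73 to 1.12, and the libraries of the days overlapped for Epx, Ear1 and Ear6. The Prg2 value was 0.44 without library 1 of day 1 and 2.41 without library 2, while that of Ear2 stayed between 0.85 and 1.25. Called genes made up 3.25% of all genes in F4/80- myeloid cells, 14.1% in neutrophils and 5.86% in CX3CR1+ macrophages. Of the 9 genes, 3, 6 and 2 were past the rule, and these were not all granule genes. In neutrophils 4 of the 6 were higher on day 14, while Siglecf and Ccr3 were lower. In CX3CR1+ macrophages the 2 were Ear2 and the receptor gene Il5ra, which had 8 counts or fewer in every library of that population.

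Receptor genes went in other directions in these populations. Siglecf was lower on day 14 than on day 1 in neutrophils, by a log2 fold change of -1.60 ± 0.28, and so was Ccr3, by -1.88 ± 0.53. In CX3CR1+ macrophages Siglecf had -1.12 ± 0.47 from 22 and 43 counts to 7 and 9. In F4/80- myeloid cells Siglecf had 0.07 ± 0.26 and Ccr3 -0.13 ± 0.48, and their libraries overlapped between the days. The direction of Siglecf and Ccr3 in neutrophils was thus opposite to that in CD9+ macrophages, while Epx, Prg2, Ear1 and Ear2 were higher on day 14 in both.

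**Figure D4:**
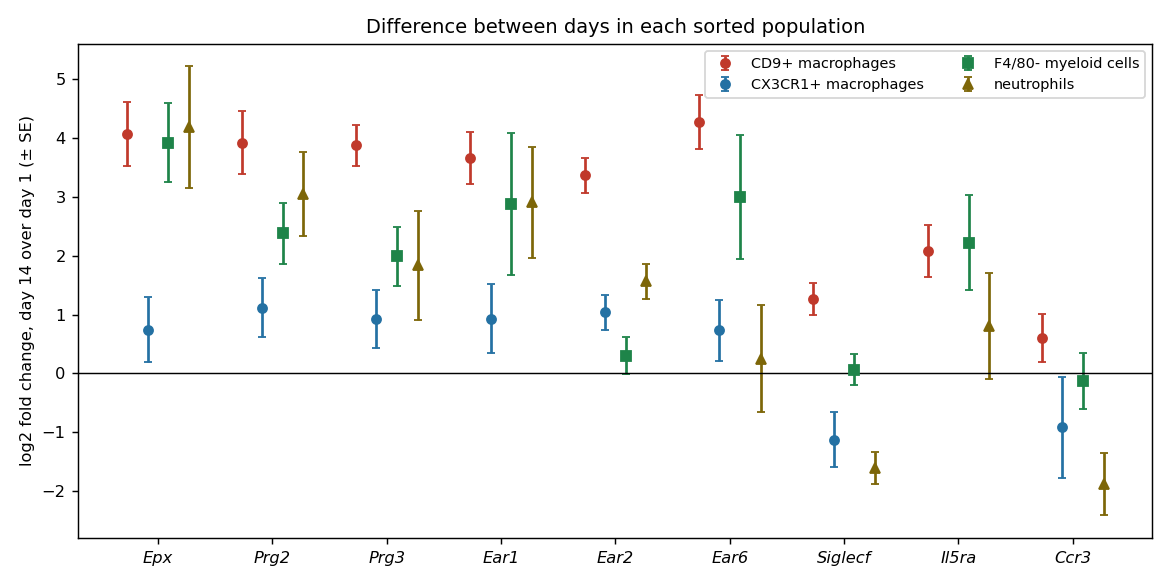
Log2 fold change of each gene from day 1 to day 14 in the 4 populations, with standard errors from the edgeR fit (2 libraries a group); Il5ra in CX3CR1+ macrophages is left out since both day 1 libraries had 0 counts. The 6 granule genes lie between 3.37 and 4.27 in CD9+ macrophages, and Siglecf and Ccr3 lie below 0 in neutrophils and CX3CR1+ macrophages. For Ccr3 in CX3CR1+ macrophages, at -0.91 ± 0.86, the libraries of the days overlapped, and the value was 0.75 without library 1 of day 1.

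The change over time in CD9+ macrophages minus that in F4/80- myeloid cells was fitted as an interaction term. For Ear2 it was 3.07 ± 0.42, for Prg3 1.89 ± 0.63, for Prg2 1.54 ± 0.70, for Siglecf 1.20 ± 0.37 and for Epx 0.15 ± 0.91. It was below 0 for Il5ra, at -0.14 ± 0.65. By the rule 1.69% of all genes were called for this term, and of the 9 genes only Ear2 was past it. The standard errors of Ear1 and Ear6 were 1.77 and 1.47.

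Between CD9+ and CX3CR1+ macrophages, both sorted as F4/80+, the difference on day 14 was 7.24 ± 0.64 for Epx, 7.10 ± 0.64 for Ccr3, 6.90 ± 0.61 for Prg2 and 6.13 ± 0.39 for Siglecf on the log2 scale. Ear2 had the smallest, 3.83 ± 0.31, and the other granule genes 6.65 to 6.71. On day 1 the granule genes had 1.5 to 4.10, with Ear2 again the smallest. The mean level in CX3CR1+ macrophages was 5.87% of the CD9+ level for Prg2, 6.67% for Epx, 7.69% for Prg3 and 6.75% for Ear1 on day 1, and 0.835%, 0.659%, 0.985% and 0.977% on day 14. Ear6 stood at 11.4% and 0.952% and Ear2 at 35.6% and 7.04%, so 5 of the 6 granule genes were at 0.985% or less on day 14 and Ear2 was not. Called genes were 8.23% of all genes on day 1 and 14.2% on day 14, with 9 and 9 of the 9 genes past the rule.

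Against F4/80- myeloid cells, CD9+ macrophages of day 14 differed most in Ear6 and Ear1, with log2 fold changes of 8.77 ± 0.60 and 8.74 ± 0.62, and less in Epx, Prg2 and Prg3, with 6.86, 6.56 and 6.39. Siglecf differed by 1.36 ± 0.27 on day 14 and by 0.16 ± 0.26 on day 1, when its libraries overlapped. On day 1 the ratio of Ear1 counts, 767 against 5, was 275 on the CPM scale with a 95% counting interval of 117 to 849. All 5 of the F4/80- counts were in library 2, and the log2 fold change of 7.95 was 7.02 without library 1 and 11.69 without library 2, which left that group at 0. By the rule 15.4% of all genes were called on day 1 and 7.7% on day 14, and 8 and 9 of the 9 genes were past it. Between F4/80- myeloid cells and neutrophils the rule called 49% of all genes on day 1 and 48.7% on day 14, and 3 and 4 of the 9 genes. There Prg2 was higher in F4/80- cells, by 2.52 ± 0.70 and 1.85 ± 0.53, and Ear2 was higher in neutrophils of day 14, by a log2 fold change of -1.99 ± 0.31 for F4/80- cells against neutrophils.

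Other genes of the eosinophil programme were taken from lists without the 9 genes and are tested with the same edgeR fit over all genes. These lists, and the markers of other cell types below, were also chosen with earlier results of these data known. Their calls and p-values are thus no independent support. Of 14 tested transcription factors of the lineage, 4 rose in CD9+ macrophages from day 1 to day 14 and none fell. Among all genes 8.23% were called in this comparison. Gata1, the factor that commits progenitors to the eosinophil, mast cell and erythroid lineages, rose from 5.09 and 1.37 CPM to 12.5 and 17.6, with a log2 fold change of 2.19 ± 0.67 (adjusted p = 0.036, edgeR). The call was lost in 5 of the 16 fits that left out a library, among them that without CD9+ library 2 of day 1 and those without either CD9+ library of day 14. Gata2 rose from 32.6 and 15.3 CPM to 84.6 and 55.3, with 1.53 ± 0.31 (adjusted p = 0.00411, edgeR), a call lost without CD9+ library 1 of day 14. Cebpe, needed for the terminal maturation of granulocytes, had 72.9 and 32.5 CPM on day 1 and 97.6 and 97.3 on day 14. Its log2 fold change of 0.88 ± 0.28 was short of the rule. In CX3CR1+ macrophages and in F4/80- myeloid cells 2 of the 14 factors rose between the days and 0 fell. These were Cebpa and Cebpb in both, where 5.86% and 3.25% of all genes were called. The Cebpb calls were lost in 1 and 4 of the 16 fits that left out a library.

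Gata1 and Gata2 had different patterns over the populations on day 14. Gata1 was higher in CD9+ macrophages than in F4/80- myeloid cells, which had 3.13 and 3.35 CPM, with a log2 fold change of 2.21 ± 0.67 (adjusted p = 0.0418, edgeR) whose call was lost in 10 of 16 fits without 1 library. So was Zfpm1, which encodes the GATA1 partner FOG1, by 2.24 ± 0.43 (adjusted p = 0.00251, edgeR), without the call when F4/80- library 1 of day 14 was left out. Gata2 was lower in CD9+ macrophages, at 84.6 and 55.3 against 398 and 403 CPM, with -2.52 ± 0.31 (adjusted p = 4.17e-05, edgeR). Of the 14 factors, 3 were higher and 1 lower in this comparison, where 7.7% of all genes were called.

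Of 15 tested receptor partners and signalling genes, 1 rose and 1 fell in CD9+ macrophages between the days, where 8.23% of all genes were called. Il1rl1, the interleukin 33 receptor, rose from 7.64 and 7.39 CPM to 17.8 and 20.0, by 1.33 ± 0.35 (adjusted p = 0.0179, edgeR), a call lost without either CD9+ library of day 14. Csf2rb2, a beta chain of the interleukin 3 receptor, fell from 101 and 186 CPM to 61.6 and 60.7, by a log2 fold change of -1.23 ± 0.20 (adjusted p = 0.000921, edgeR), and not past the rule without CD9+ library 2 of day 1. Csf2rb, the common beta chain that pairs with IL5RA, had 413 and 524 CPM on day 1 and 242 and 231 on day 14, a log2 fold change of -0.99 ± 0.13 (adjusted p = 0.000141, edgeR) that was just under the size the rule asks for, and it was called without CD9+ library 1 of day 1 or library 1 of day 14. It was expressed in all 16 libraries, at 231 to 1057 CPM, and differed between CD9+ and CX3CR1+ macrophages by 0.004 on day 1, while Il5ra was nearly restricted to CD9+ macrophages.

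Among the eicosanoid genes, 4 of 9 tested rose in CD9+ macrophages and 1 fell, where 8.23% of all genes were called. Alox15, the 12/15-lipoxygenase of eosinophils and some macrophages, rose from 102 and 128 CPM to 368 and 498, by 1.91 ± 0.21 (adjusted p = 3.1e-05, edgeR), and was named here after its values were seen. Hpgds, the haematopoietic prostaglandin D synthase, rose from 2.40 and 3.27 to 13.7 and 19.3 CPM, by 2.55 ± 0.57 (adjusted p = 0.00665, edgeR), and was not called without CD9+ library 2 of day 14. Ltc4s, the leukotriene C4 synthase, had 0 and 0.423 CPM on day 1 and 2.59 and 3.45 on day 14 (adjusted p = 0.0302, edgeR), a call lost in 3 of 16 fits without 1 library and with no filter or filterByExpr. Ltc4s passed the filter on low values only through CD9+ macrophages of day 14, where it was high, so its test is not independent of that level. Ptges, a prostaglandin E synthase, fell from 9.76 and 14.7 CPM to 3.17 and 3.04, by -1.97 ± 0.38 (adjusted p = 0.00254, edgeR). On day 14 Alox15 was at most 46.3 CPM in F4/80- myeloid cells and at most 3.70 in CX3CR1+ macrophages and neutrophils.

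Ligands were sparse in these sorted cells, with 6 of 13 listed genes in the table used here and 5 tested, and Ccl11 and Il5 are not among them. Ccl7, a ligand of CCR3 and other receptors, fell in CD9+ macrophages from 142 and 155 CPM to 9.60 and 16.4, by a log2 fold change of -3.51 ± 0.30 (adjusted p = 3.99e-06, edgeR). Ccl24, eotaxin 2, had 11.8 and 11.0 CPM on day 1 and 2.02 and 5.37 on day 14, with -1.63 ± 0.64 (adjusted p = 0.095, edgeR). Ccl5, a further CCR3 ligand, rose to 3.17 and 2.53 CPM from 0.354 and 0.423, by 2.86 ± 0.87 (adjusted p = 0.0347, edgeR), a call lost in 6 of 16 fits without 1 library and with no filter or filterByExpr. Ccl5 too passed the filter on low values only through CD9+ macrophages of day 14, where it was high, so its test is not independent of that level. A list of 18 genes held the ribonuclease family beyond the 9 genes and also Rnh1, the ribonuclease inhibitor. Of these 4 were tested, namely Ang, Rnase4, Rnase6 and Rnh1. Between the days in CD9+ macrophages 0 of the 4 were called by edgeR or by DESeq2, while 2 had an unadjusted p under 0.05 in edgeR. On day 14 Rnase4, a ribonuclease outside the Ear group, was higher in CD9+ macrophages than in F4/80- myeloid cells. It had 16.2 and 30.3 against 3.13 and 3.67 CPM, and 14.9 and 15.4 in CX3CR1+ macrophages of that day. On day 1 CX3CR1+ macrophages had 27.3 and 27.4 CPM, against 16.8 and 24.7 in CD9+ macrophages.

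Genes of myeloid progenitors and of azurophil granules, which are made early in granulocyte development, rose in 4 of 12 tested members in CD9+ macrophages and fell in 0. The share called among all genes was 8.23%. Mpo, the myeloperoxidase of neutrophils and a relative of Epx, rose from 493 and 325 CPM to 1218 and 721, by 1.25 ± 0.35 (adjusted p = 0.0236, edgeR), and the call was lost without CD9+ library 2 of day 1 or library 1 of day 14. Nkg7, a granule membrane protein, rose from 7.92 and 4.54 to 24.1 and 21.5 CPM, by 1.85 ± 0.32 (adjusted p = 0.0012, edgeR). Mpo was higher still in F4/80- myeloid cells, at 1975 and 1994 CPM on day 14, where Epx had 15.9 and 26.2.

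Markers of other cell types that these sorts could hold were summed in each library. Basophils and mast cells share GATA factors and the interleukin 3 receptor with eosinophils, and 10 of their 14 listed markers were in the table, none at 0 in CD9+ macrophages. Their sum was 310 and 161 CPM in CD9+ macrophages of day 1 and 614 and 522 on day 14. Between the days 5 of the 10 rose and 0 fell, where 8.23% of all genes were called. Mcpt8, a basophil protease, rose from 30.1 and 24.1 CPM to 69.9 and 52.6, by 1.17 ± 0.31 (adjusted p = 0.0182, edgeR), a call lost without CD9+ library 1 of day 14 and with DESeq2. Kit and Gata2, of this list, also belong to other lists. In F4/80- myeloid cells the same sum was 1462 to 2326 CPM, and Mcpt8 was 392.2 and 354 on day 14, where Prg2 was at 1.06% of its CD9+ level. In CX3CR1+ macrophages the sum was 4.88 to 10.3, with Mcpt8 at 0.557 or less. In neutrophils it was 1177 to 1410, of which Hdc made up 1144 to 1387. The part of these markers in the difference of the granule genes was not tested.

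All 10 neutrophil markers were in the table, and their sum in CD9+ macrophages was 18542 and 5694 CPM on day 1 and 20524 and 13713 on day 14, against 53812 to 116060 in neutrophils. Between the days 2 of the 10 rose in CD9+ macrophages and 1 fell. All marker counts here stand beside the 8.23% of all genes called in this comparison. Ly6g itself had 1.91 and 0.106 CPM on day 1 and 4.99 and 2.64 on day 14 there, a call (log2 fold change 1.73 ± 0.55, adjusted p = 0.0419, edgeR) that was lost in 12 of 16 fits without 1 library. In neutrophils, where this sum was highest, Prg2 had 16.3 CPM or less. The macrophage markers summed to 2370 and 3123 CPM in CD9+ macrophages of day 1 and 1475 and 2232 on day 14, and 3 of 10 fell and 0 rose, among them Fcgr1, a high-affinity receptor for IgG, by -1.92 ± 0.42 (adjusted p = 0.00643, edgeR, not called without CD9+ library 1 of day 14). C1qa, C1qb and C1qc, complement genes of macrophages, were at 72.8 to 184 CPM in CD9+ macrophages of day 14, the libraries with the most granule RNA. Dendritic cell markers summed to 9.26 and 14.8 CPM in CD9+ macrophages of day 1 and to 22.7 and 27.9 on day 14, and 1 of 5 tested rose, Cd209a, by 2.80 ± 0.42 (adjusted p = 0.000454, edgeR). Lymphoid markers summed to 0.739 to 3.94 there. The part of these cells in the difference of the granule genes was not tested. Of the erythroid and megakaryocyte markers, 1 of 4 tested fell there, Pf4, by -1.73 ± 0.43 (adjusted p = 0.012, edgeR), in a call lost in 3 of 16 fits.

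Likeness among the 9 genes was measured as Pearson's r of log2 CPM over the 16 libraries, as a description, since the points share populations and pools. Prg2 and Prg3 had r = 0.969, Ear1 and Ear6 0.970, and Epx and Prg2 0.949. Il5ra stood with the granule genes, at 0.848 to 0.909, and Ccr3 less so, at 0.528 to 0.645. Siglecf had 0.130 to 0.264 with the granule genes and 0.806 with Ccr3. The genes thus fell into those that followed the CD9+ sort of day 14, and Siglecf, with Ccr3 between them.

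The 5 tested genes outside the set that were most like the mean of Epx, Prg2 and Prg3 over these libraries were Gm8113 (r = 0.961), Wnt11 (0.925), Cspg4 (0.915), Fxyd2 (0.915) and Stac2 (0.902). Gm8113 is annotated as protein-coding on chromosome 14 from 43925390 to 43933411, between Ear1 and Ear2, and had 16.5 and 32.1 CPM in CD9+ macrophages of day 1 and 222 and 274 on day 14, with at most 2.27 elsewhere. Cspg4, a membrane proteoglycan, had 3.47 and 6.02 and then 78.3 and 113 CPM, with at most 1.02 elsewhere. Wnt11, a secreted Wnt ligand, had 14.1 and 4.96 and then 15.6 and 19.9. Those outside the set most like Siglecf were Cd63 (0.954), Alas1 (0.937), Baiap3 (0.934), Olr1 (0.918) and Mapk4 (0.914). Cd63, a tetraspanin of granule and lysosome membranes, had 183 and 225 CPM in CD9+ macrophages of day 14, 141 to 193 in neutrophils, 120 to 164 in F4/80- myeloid cells and at most 13.7 in CX3CR1+ macrophages.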

How the data were processed

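RNA of 4 sorted populations, taken 1 or 14 days after ACLR, was sequenced as stranded SMART-Seq paired-end libraries, 2 per population and day. Adapters were trimmed with Cutadapt, reads were aligned to mm10 with STAR, and reads in exons of Gencode M23 were counted. The authors deposited these whole-number counts per gene without normalization for 20200 genes, and all 16 columns were assigned to samples by their names.

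From the counts, CPM values with TMM factors were computed in R 4.3.3 with edgeR 4.0.16. A gene was kept where the mean CPM of any of the 8 groups, before TMM scaling, reached 3, which left 11998 genes. All 16 libraries entered 1 model with a mean for each group (glmQLFit and glmQLFTest). Calls needed a Benjamini-Hochberg adjusted p below 0.05 with a log2 fold change of 1 or more in size, and standard errors were taken from the log2 fold change and its F statistic. P-values measure the spread between pools of mice. The steps were tested on simulated data. Total counts per library lay between 9233952 and 19814119, and 3 counts per library were taken as the limit of detection. Counting intervals of 95% are exact.

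The members and the gene lists were chosen with earlier results of these data known. Of the lists, up to 2 called genes in each direction with the largest log2 fold change and without overlap of libraries could be named in a comparison, beside Csf2rb, Gata1, Cebpe, Il5, Ccl11, Ccl24, Mpo, Mcpt8, Ly6g and Adgre1. The 5 genes most correlated with the mean of Epx, Prg2 and Prg3, and with Siglecf, were named as well. Of the 135 listed genes, 109 were in the table and 94 were tested. Alternatives were DESeq2 1.42.0, other scaling factors, other filters, a replicate block and leaving out each library. Promoter sequences came from RefSeq on GRCm38.p6, and coding sequences and their 50-base windows from Gencode transcripts of the same build. The result of 1 listed gene is not reported here.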

Additional observations from a re-analysis of the deposited data

Results flagged for a closer look

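Siglecf and Ccr3 drew attention because both libraries of a population moved against both libraries of CD9+ macrophages between the days. Siglecf, higher on day 14 in CD9+ macrophages by a log2 fold change of 1.27, had -1.12 in CX3CR1+ macrophages and -1.60 in neutrophils. Ccr3, at 0.60 in CD9+ macrophages, had -1.88 in neutrophils. These differences between populations were not tested.

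For 5 listed genes beyond the 9, the change over time in CD9+ macrophages differed from that in F4/80- myeloid cells by the interaction term of the edgeR fit. That term called 1.69% of all genes. Retnlg, a neutrophil gene, differed by 4.46 ± 0.40 (adjusted p = 0.000131), from 122 and 101 CPM to 243 and 265 in CD9+ macrophages and from 123 and 98.3 to 10.5 and 12.3 in F4/80- myeloid cells. Hdc, the histamine-forming enzyme, differed by 1.80 ± 0.35 (adjusted p = 0.0177, edgeR), Mmp8, a neutrophil collagenase, by 1.76 ± 0.39 (adjusted p = 0.0311, edgeR), and Alox15 by 1.39 ± 0.29 (adjusted p = 0.0211, edgeR). Irf8, a factor of monocyte fate, differed by -1.02 ± 0.24 (adjusted p = 0.0377, edgeR). The calls of Hdc, Mmp8, Alox15 and Irf8 were lost in 6, 6, 4 and 11 of the 16 fits that left out a library, and that of Irf8 also with library size only and upper quartile factors.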

How the results depend on the processing

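The log2 fold changes of the 9 genes were recomputed with DESeq2, other scaling factors, no filter, edgeR's filterByExpr and a replicate block, and none that was past the rule turned its direction. Scaling by library size only moved 9 of 88 member differences and upper quartile factors 5 by more than the spread between replicates. Leaving out a library moved 26 and left 1382 within it, among the moved Epx in F4/80- myeloid cells (3.92, or 11.1 without library 2 of day 1). A lone library was then assumed to vary like the other groups.

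Counts of called genes stayed within 1.5 times under all settings that kept every library, except that DESeq2 called 377 genes and 11 listed genes for the difference in change over time between CD9+ macrophages and F4/80- myeloid cells, where edgeR called 203 and 5; the cause was not tested. Leaving out each library in turn gave 15 to 956 and 1 to 27 for this term, the highest without library 1 of CD9+ macrophages of day 1 and the lowest without library 1 of F4/80- myeloid cells of day 14, and leaving out any other CD9+ or F4/80- library except library 2 of CD9+ macrophages of day 1 gave 74 to 106 genes. For day 14 against day 1 it gave 571 to 1734 genes and 17 to 42 listed genes in CD9+ macrophages (lowest without library 1 of day 14, highest without library 1 of day 1), 432 to 878 and 15 to 27 in CX3CR1+ macrophages (461 and 432 without library 1 or 2 of day 14), 174 to 538 and 5 to 11 in F4/80- myeloid cells (174 to 257 without any 1 of their own libraries), and 1210 to 1866 and 20 to 33 in neutrophils. Between CD9+ macrophages and F4/80- myeloid cells it gave 1463 to 2763 and 44 to 61 on day 1 and 536 to 1093 and 27 to 45 on day 14 (536 without CD9+ library 2 and 597 without F4/80- library 2 of that day). Between CD9+ and CX3CR1+ macrophages it gave 692 to 1391 and 35 to 44 on day 1 and 1360 to 1880 and 49 to 54 on day 14. Between F4/80- myeloid cells and neutrophils it gave 5305 to 6041 and 60 to 68 on day 1 and 5292 to 6008 and 55 to 64 on day 14.

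Same-numbered libraries of a day correlated in their deviations at 0.013 to 0.144. The study's number of mice is too small for a separate pool for each library, so sorted populations share mice. The labels do not say that a number marks a pool, so the numbers were not treated as pairs. With the replicate number as a block, 991 genes were called between the days in CD9+ macrophages (988 without), and no count moved by over 1.5 times. No edgeR call printed for a single gene changed, while Prg2 in CX3CR1+ macrophages came past the rule between the days. Listed genes called went from 28 to 30 between the days in CD9+ macrophages and from 5 to 6 for the interaction term.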
